A study of Danio rerio with 6 samples.

Results

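Neuregulins are growth factors with an Egf-like domain, and the ErbB proteins are the receptor tyrosine kinases that bind Egf-family ligands. The genes described here are 8 members of this ligand and receptor group, the neuregulin genes nrg1, nrg2a and nrg2b and the receptor genes egfra, erbb2, erbb3a, erbb3b and erbb4a. They were chosen by symbol, not by their values, although earlier results of these data were known. All 8 were found among 14781 gene rows in the count files. The neuregulin genes nrg3a and nrg3b and the receptor gene erbb4b were not among these rows under their symbols, and so were not analysed here.

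Bulk RNA-seq was run on spinal cord of adult zebrafish, with 3 libraries from sham-injured fish and 3 libraries from fish at 1 week after complete transection (1 wpi). According to the methods of the study, the fish were clutchmates, the cord was cut between the dorsal fin and the operculum, and the sham procedure was a cut through skin and muscle that reached the cord without injuring it. The study used adults of both sexes of the outbred Ekkwill strain, the labels name no transgene or mutation in either group, and the tissue reached 2 mm rostral and 2 mm caudal of the lesion. How many fish went into each library is not stated in the methods, and the p-values reflect the spread among libraries only, which may be partly technical.

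Neuregulins are made largely as membrane-anchored precursors, many of them by neurons, and proteases release or expose the Egf-like domain. They bind ErbB3 and ErbB4, while ErbB2 has no known ligand of its own and acts as a partner in receptor pairs, and the kinase of ErbB3 is weak, so that ErbB3 signals mainly within such pairs. In zebrafish larvae, nrg1, erbb2 and erbb3b are known for guiding Schwann cells, the myelinating glia of nerves, along peripheral axons. In mammals, neuregulins on axons also control how much myelin Schwann cells make.

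Sequencing depth did not set the groups apart, with 19310220 to 24161526 reads counted in genes in sham libraries and 21926842 to 30147448 in injured libraries. Levels are given in CPM, the read count of a gene scaled to the size of its library, and values of single libraries are listed in the order of replicates 1, 2 and 3. No gene lengths were used, so levels are not compared between genes. Groups were compared with the quasi-likelihood test of edgeR over all 12804 genes that passed a filter on low counts, and p-values were adjusted over all of these with a threshold of 0.05. Sham replicate 1 stood apart from the other sham libraries. Its share of reads outside annotated genes was 43.8%, while the other sham libraries had 50.9% and 51.3% and the injured libraries 41.2% to 42.1%. Calls of the members and of most gene lists are therefore given with and without it. Its position is given for all members except erbb3a and erbb3b, on a scale from 0 (mean of sham replicates 2 and 3) to 1 (mean of the injured libraries). Markers of spinal cord cells were present in every library, with the summed level of 11 neuron genes between 13855 and 32552 CPM and that of 11 genes of ependymo-radial glia, the cells that line the central canal, between 16146 and 23783 CPM.

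At 1 wpi, 2 of the 3 neuregulin genes and 1 of the 5 receptor genes fell, and 1 receptor gene rose. The genes that fell were nrg1, nrg2a and erbb4a, and the gene that rose was egfra. The genes nrg2b, erbb2, erbb3a and erbb3b did not pass the test. All 8 members passed the filter on low counts. Of all genes tested, 4.83% were called lower and 5.81% higher, 10.6% in all, against 4 of 8 members. The median log2 fold change of the members was -0.36, and that of all genes tested was -0.03.

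**Figure D1:**
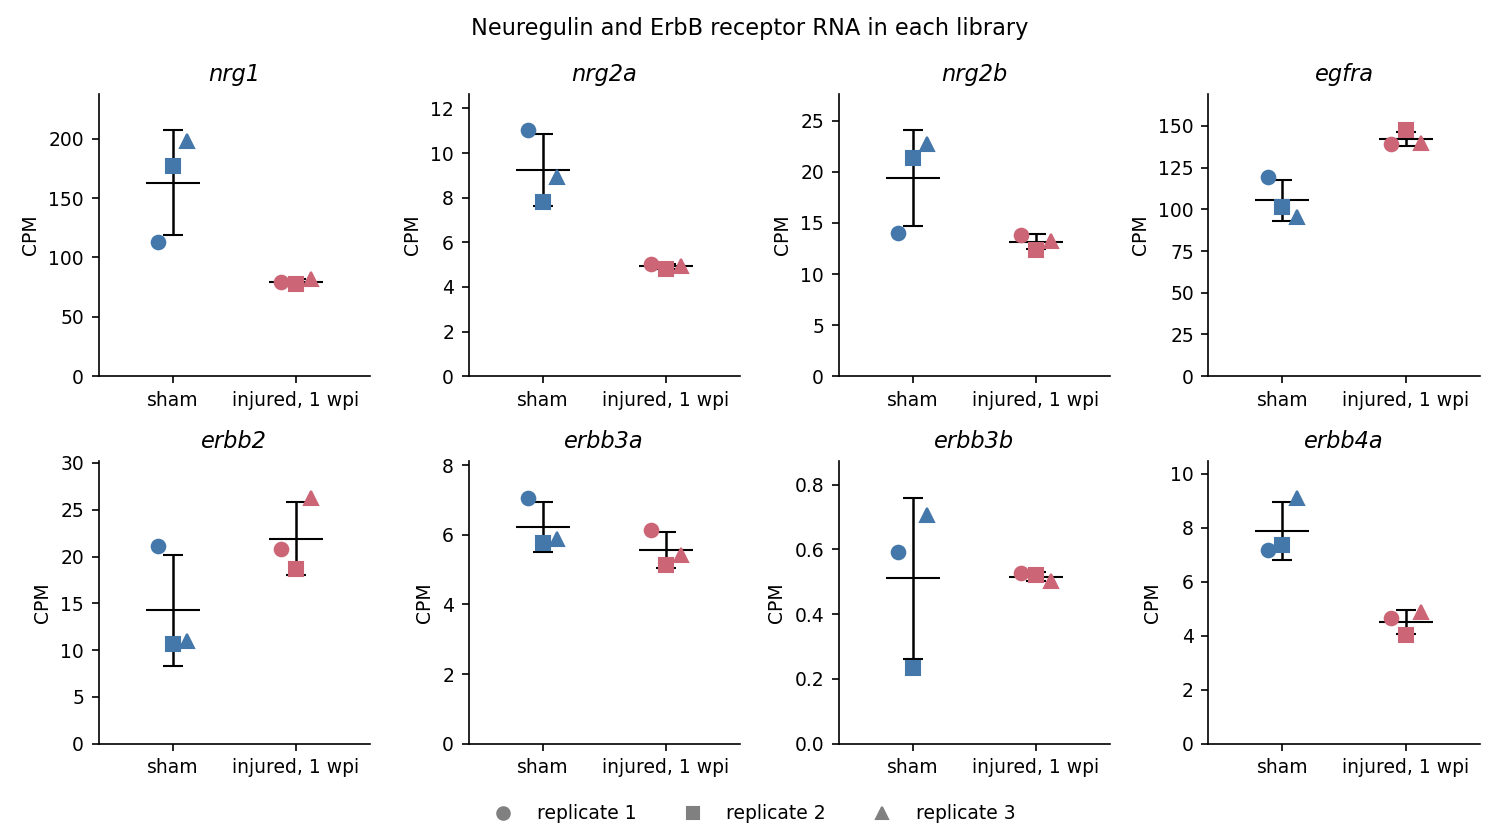
Level of each member in each library in CPM (linear axes from 0, each with its own range), with sham and injured libraries at 1 wpi shown as separate points and the group mean and SD (n = 3) beside them. The injured libraries of nrg1 lie between 78.0 and 81.8 CPM, below all sham libraries, and sham replicate 1 lies among the injured libraries for erbb2.

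The ligand gene nrg1 encodes neuregulin 1, the best studied of the family. It measured 113, 177 and 198 CPM in the sham libraries and 78.9, 78.0 and 81.8 CPM in the injured libraries. Each injured library was below each sham library, and the injured libraries lay close together while the sham libraries spread over a 1.75-fold range. The sham mean was 163 ± 44.2 CPM and the injured mean 79.6 ± 1.98 CPM (SD, n = 3 each). The log2 fold change was -1.03 (standard error 0.204, 95% interval -1.53 to -0.54, adjusted p = 0.0407 from edgeR), which is a level of 0.489 times that of sham cords. Sham replicate 1 was the lowest sham library, at position 0.587 between the other sham libraries and the injured mean. In whole tissue, fewer cells of a type and less RNA per cell cannot be told apart, which holds for every gene described here.

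The paralogs nrg2a and nrg2b encode forms of neuregulin 2, a ligand that is expressed in the nervous system. For nrg2a the level was 11.0, 7.80 and 8.91 CPM in the sham libraries and 5.05, 4.79 and 4.92 CPM in the injured libraries. All injured libraries were below all sham libraries. The sham mean was 9.24 ± 1.63 CPM and the injured mean 4.92 ± 0.127 CPM (SD, n = 3 each). nrg2a fell by 0.91 in log2 CPM (standard error 0.163, 95% interval -1.31 to -0.51, adjusted p = 0.0363 from edgeR). Unlike nrg1, nrg2a was highest in sham replicate 1, which therefore lay on the far side of the other sham libraries from the injured ones, at position -0.531.

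For nrg2b the level was 14.0, 21.4 and 22.7 CPM in the sham libraries and 13.8, 12.4 and 13.2 CPM in the injured libraries. The groups did not overlap, but sham replicate 1 was only just above injured replicate 1, at position 0.879. nrg2b did not pass the test, its log2 fold change being -0.56 (standard error 0.194, 95% interval -1.03 to -0.09, adjusted p = 0.0953 from edgeR). It passed without sham replicate 1, with a log2 fold change of -0.74 (adjusted p = 0.000628 from edgeR), and with DESeq2 on all 6 libraries (adjusted p = 0.0477). When any library other than sham replicate 1 was left out, DESeq2 did not call nrg2b (adjusted p = 0.136 to 0.241). A difference in response between the paralogs was not shown. The ratio of nrg2a to nrg2b counts was 0.788, 0.366 and 0.392 in the sham libraries and 0.366, 0.388 and 0.372 in the injured libraries. The groups overlapped, and sham replicate 1 alone lay apart (p = 0.5, exact permutation test, 2-sided).

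Among the receptors, egfra encodes an Egf receptor, which binds Egf, Tgf-alpha and Hb-egf rather than neuregulins. It measured 119, 101 and 95.2 CPM in the sham libraries and 139, 147 and 140 CPM in the injured libraries. Every injured library was above every sham library, and sham replicate 1 was the highest of the sham libraries, at position 0.526. The log2 fold change was 0.43 (standard error 0.0988, 95% interval 0.19 to 0.67, adjusted p = 0.0466 from edgeR), a level 1.35 times that of sham cords. This call was the weakest of the 4, and it did not hold with upper-quartile scaling (adjusted p = 0.0533 from edgeR) or with library totals alone (adjusted p = 0.0773).

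The gene erbb4a encodes a receptor that binds neuregulins and Hb-egf and has a full kinase of its own. Its level was 7.16, 7.39 and 9.11 CPM in the sham libraries and 4.66, 4.01 and 4.87 CPM in the injured libraries. The injured libraries were all below the sham libraries, and sham replicate 1 lay near sham replicate 2, at position 0.227. erbb4a fell by 0.80 in log2 CPM (standard error 0.163, 95% interval -1.20 to -0.41, adjusted p = 0.0421 from edgeR), to 0.572 times the sham level. It was the called receptor gene with the lower depth, with 107 to 219 reads per library, against 2184 to 3972 for egfra.

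The gene erbb2 encodes the ligand-less partner receptor. Its level was 21.1, 10.7 and 11.0 CPM in the sham libraries and 20.8, 18.7 and 26.3 CPM in the injured libraries. Sham replicate 1 fell within the injured range, at position 0.961, while the other sham libraries were below every injured library. With all 6 libraries erbb2 did not pass the test, its log2 fold change being 0.62 (standard error 0.301, 95% interval -0.11 to 1.35, adjusted p = 0.181 from edgeR). Without sham replicate 1 it passed, with a log2 fold change of 1.01 (adjusted p = 0.00266 from edgeR).

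The genes erbb3a and erbb3b encode 2 forms of the neuregulin receptor ErbB3. For erbb3a the level was 7.06, 5.76 and 5.87 CPM in the sham libraries and 6.13, 5.13 and 5.42 CPM in the injured libraries. The groups overlapped, and the log2 fold change of -0.16 had a 95% interval from -0.54 to 0.21 (adjusted p = 0.460 from edgeR). For erbb3b only 12, 5 and 17 reads were counted in the sham libraries and 15, 14 and 11 in the injured libraries. Counting error alone gives the 5 reads of sham replicate 2 an exact 95% Poisson interval of 1.62 to 11.7 reads. Its log2 fold change of 0.01 had a 95% interval from -1.06 to 1.08 (adjusted p = 0.989 from edgeR), so falls and rises of up to about 2-fold lie within the interval at this depth. In edgeR the sign of this value changed with library totals alone (-0.034), without sham replicate 2 (-0.33) and without injured replicate 1 (-0.0005).

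**Figure D2:**
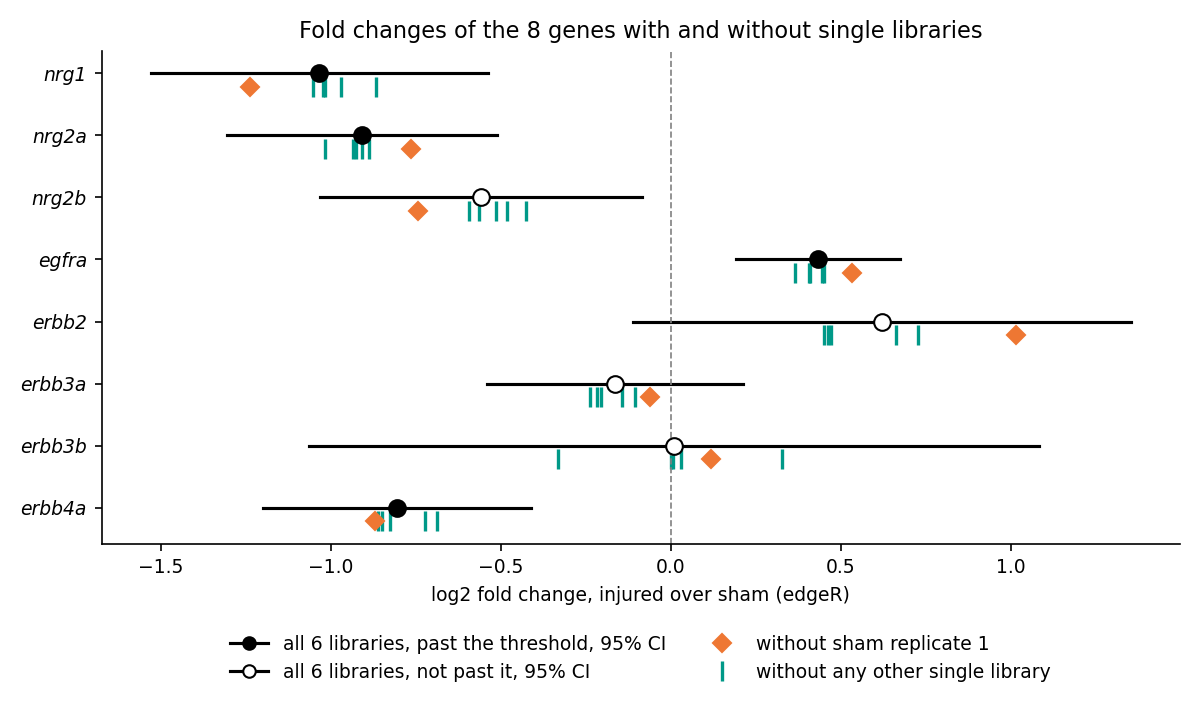
Log2 fold change of each member at 1 wpi against sham from edgeR. Circles with 95% intervals as bars show the fit of all 6 libraries (filled where past the threshold), diamonds the fit without sham replicate 1 and ticks the fits without each other library. With all libraries the intervals of erbb2, erbb3a and erbb3b include 0, and without sham replicate 1 the value of erbb2 moves from 0.62 to 1.01.

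With 3 libraries against 3, an exact permutation test of a single gene (2-sided) cannot give a p under 0.1, and it gave this smallest p = 0.1 for nrg1, nrg2a, nrg2b, egfra and erbb4a. The same exact test gave p = 0.3 for erbb2 and erbb3a and p = 1.0 for erbb3b. The groups did not overlap for 5 of 8 members, and this was so for 44.7% of all genes tested. Of these members 1 was higher, against 22.9% of all genes, and 4 were lower, against 21.8%. An unadjusted p under 0.05 was found for 5 of 8 members and for 38.2% of all genes. Without sham replicate 1 edgeR called egfra and erbb2 higher and nrg1, nrg2a, nrg2b and erbb4a lower, 6 of 8 members, against 57.2% of all genes tested in that fit, 29.0% higher and 28.2% lower. The log2 fold changes were then -1.24 for nrg1, -0.76 for nrg2a, -0.87 for erbb4a and 0.53 for egfra. DESeq2 on all 6 libraries called 5 of 8 members, against 29.6% of all genes it tested. Leaving out any library other than sham replicate 1, edgeR called no gene at all. In each of these fits 4 of 8 members had an unadjusted p under 0.05, against 26.7% and 26.5% of all genes without sham replicates 2 and 3, and 25.1%, 23.5% and 24.1% without injured replicates 1, 2 and 3. In these same fits the adjusted p was 0.117 to 0.175 for nrg1, 0.115 to 0.174 for nrg2a, 0.130 to 0.177 for egfra and 0.121 to 0.175 for erbb4a. DESeq2 with each of these libraries left out called nrg1, nrg2a and erbb4a every time, and egfra every time except without injured replicate 2 (adjusted p = 0.0510). In edgeR the 4 calls thus held with all 6 libraries and without sham replicate 1, but not when another library was left out, while the directions of the 4 genes were the same in every one of these fits.

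Within a library, the ratio of counts of 2 members does not depend on how the library was scaled, and a change in it does not depend on gene length. Ratios were compared for 6 pairs, which were chosen with earlier results of these data known. The ratio of erbb4a to egfra counts was 0.0602, 0.0730 and 0.0959 in the sham libraries and 0.0336, 0.0274 and 0.0350 in the injured libraries. Every injured library had a lower ratio than every sham library, and the mean log2 ratio differed by -1.24, a fold of 0.424. Since erbb4a was lower and egfra higher in every injured library, this ratio had to be lower there and adds no separate support.

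The ratio of erbb4a to erbb2 counts was 0.340, 0.692 and 0.830 in the sham libraries and 0.225, 0.215 and 0.186 in the injured libraries. It was lower in all injured libraries, with a difference of -1.48 on the log2 scale, although sham replicate 1 was nearest to them. The ratio of erbb2 to its partner erbb3a was 2.98, 1.85 and 1.87 in the sham libraries and 3.38, 3.64 and 4.83 in the injured libraries. It was higher in all injured libraries, with a difference of 0.84 on the log2 scale, although erbb2 alone overlapped between groups. The ratio of the ligand gene nrg1 to the receptor gene erbb3a was 16.0, 30.6 and 33.7 in the sham libraries and 12.8, 15.2 and 15.04 in the injured libraries. It was lower in all injured libraries, with a difference of -0.83, and sham replicate 1 was only slightly above injured replicate 2. Each of these 4 ratios gave p = 0.1, the smallest that the exact permutation test allows, and an adjusted p = 0.15 over the 6 pairs. The ratio of erbb3a to erbb3b overlapped between groups (difference -0.30, p = 0.7, exact permutation test).

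**Figure D3:**
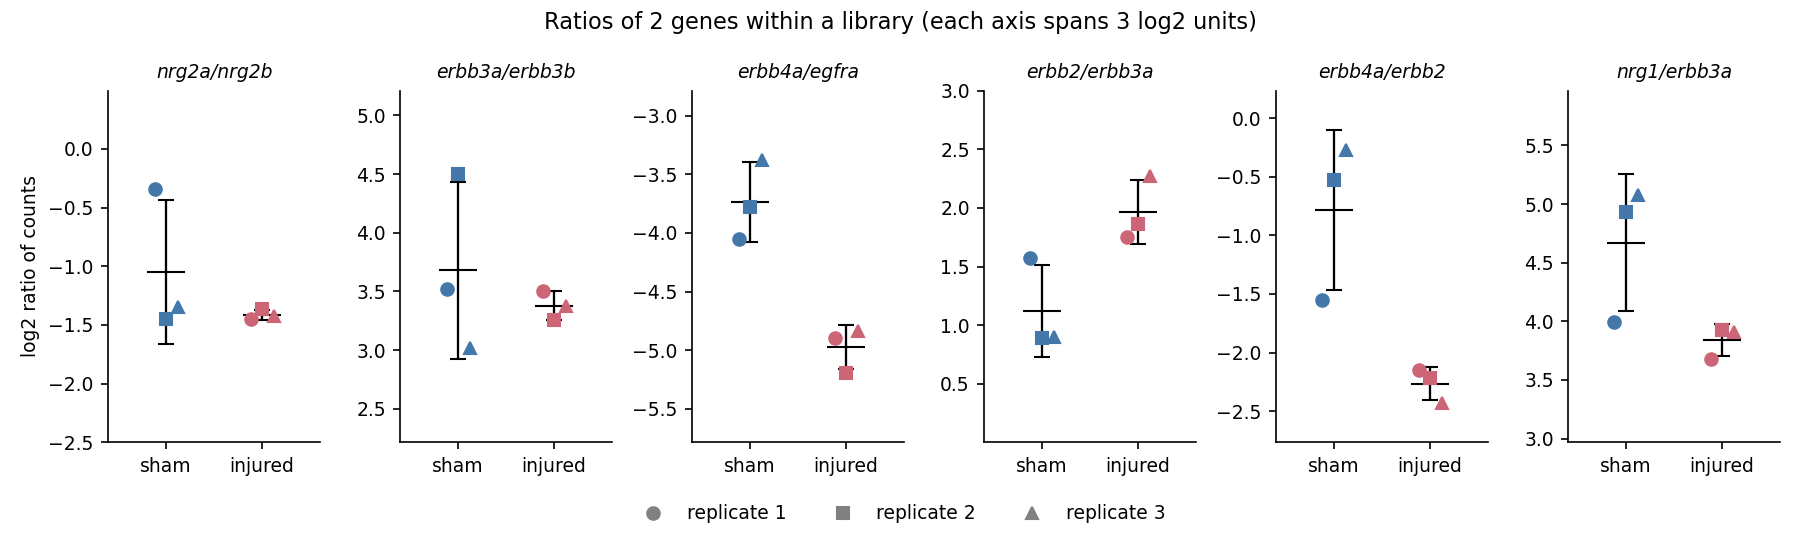
Log2 ratio of the counts of 2 members within each library (0.5 added to each count), for the 6 pairs, with sham and injured libraries at 1 wpi as points and the group mean and SD (n = 3) as lines. For erbb4a to egfra, erbb4a to erbb2 and nrg1 to erbb3a all injured libraries lie below all sham libraries, for erbb2 to erbb3a all lie above, and the other pairs overlap.

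Some markers of neurons fell at 1 wpi, where 4.83% of all genes tested were called lower. Of 11 neuron genes tested, 3 fell and 8 were not called. Among these 8, stmn2b was higher in every injured library, at 0.44 on the log2 scale (adjusted p = 0.0634 from edgeR and 0.00262 from DESeq2). The summed level of the 11 genes was 18217 to 32552 CPM in sham libraries and 13855 to 14492 CPM in injured libraries. Of 10 genes of motor neurons, 3 fell, with a summed level of 961 to 1672 CPM in sham and 771 to 794 CPM in injured libraries. Of 8 genes of inhibitory neurons, 2 fell, with 1166 to 1936 CPM in sham and 1012 to 1043 CPM in injured libraries. The 2 genes of excitatory neurons that could be tested passed neither edgeR, adjusted or unadjusted, nor DESeq2, with 108 to 140 CPM in sham and 123 to 145 CPM in injured libraries. In the fit without sham replicate 1, edgeR called 8 of 11 neuron genes lower and 1 higher, and 7 of 10 motor neuron genes lower. It called 6 of 8 inhibitory genes lower and 1 higher, and neither excitatory gene. In that fit 28.2% of all genes were called lower and 29.0% higher. DESeq2 on all 6 libraries called 5 genes lower in each of the neuron, motor neuron and inhibitory lists, against 14.8% of all genes, and 1 neuron gene higher. The part of neurons in the results of nrg1, nrg2a, nrg2b and erbb4a was not tested.

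Members were therefore also set beside the neuron markers of the same library, as log2 CPM of the gene minus the mean log2 CPM of the neuron list, with no test. On this scale nrg1 was -2.43, -2.23 and -2.25 in the sham libraries and -2.79, -2.84 and -2.76 in the injured libraries. It was still lower in every injured library, with a difference of -0.50, against a log2 fold change of -1.03 on its own. For nrg2b the value was -5.44, -5.27 and -5.38 in sham libraries, and -5.30, -5.49 and -5.38 in injured libraries. These overlapped, with a difference of -0.03, so nrg2b moved as the mean of the neuron list did. For nrg2a the difference was -0.39, where sham replicates 2 and 3, at -6.72 both, were just above the injured libraries, at -6.74 to -6.84, and sham replicate 1, at -5.78, lay far above. For erbb4a the difference was -0.29, with sham values from -6.80 to -6.39 and injured values from -7.10 to -6.81. Beside the motor neuron list the differences were -0.45 for nrg1, -0.34 for nrg2a, 0.02 for nrg2b and -0.25 for erbb4a, and beside the inhibitory list -0.40, -0.29, 0.06 and -0.20. Beside both of these lists the groups stayed apart for nrg1 alone among the 4 genes. Beside the 2 excitatory neuron genes tested, all 4 genes were lower in every injured library. There the differences were -1.06 for nrg1, -0.95 for nrg2a, -0.59 for nrg2b and -0.86 for erbb4a, so the outcome depends on the neuron list used.

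**Figure D4:**
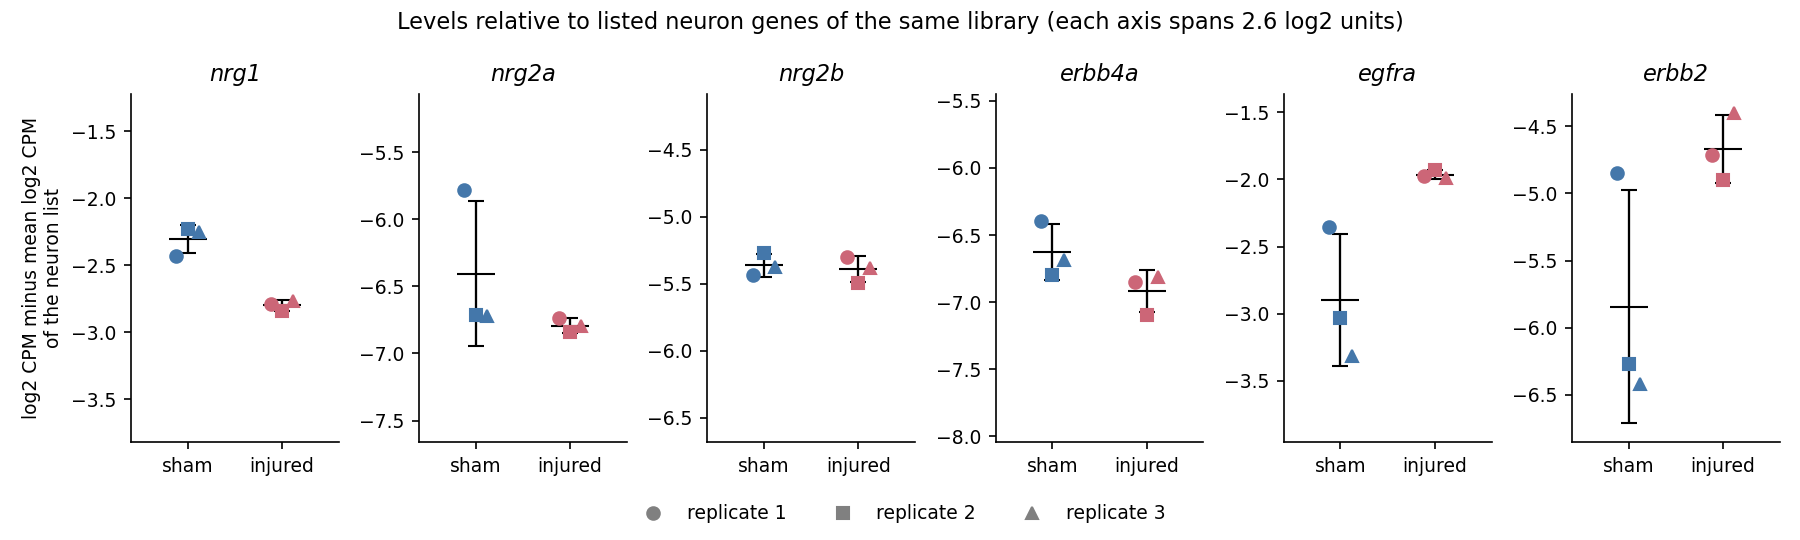
Log2 CPM of members minus the mean log2 CPM of the neuron marker list in the same library, with sham and injured libraries at 1 wpi as points. Each axis spans the same range, and lines show the group mean and SD (n = 3). The injured libraries lie below the sham libraries for nrg1, by 0.50 between means, and narrowly for nrg2a and erbb4a. They lie above for egfra, by 0.94, and the groups overlap for nrg2b and erbb2. Since egfra was higher and the mean of the neuron list lower in every injured library, egfra had to lie above there. This adds no separate support. Beside the excitatory neuron genes (not shown) the groups overlapped for egfra, with a difference of 0.37.

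Some markers of other cells rose at 1 wpi, where 5.81% of all genes tested were called higher. Of 11 genes of ependymo-radial glia, 3 rose, with a summed level of 16146 to 21049 CPM in sham and 22874 to 23783 CPM in injured libraries. In the fit without sham replicate 1, 6 of them were called higher, where 29.0% of all genes were. Beside the mean of this ependymo-radial glia list, egfra was lower in every injured library, with a difference of -0.22, and erbb2 overlapped, with a difference of 0.02. This mean includes slc1a3b, at 125, 9.38 and 9.70 CPM in the sham libraries and 197, 194 and 198 CPM in the injured libraries. The mean was not taken without slc1a3b, so both differences may depend on this 1 gene. Of 12 genes of microglia and macrophages, 5 rose, and 10 were called higher without sham replicate 1. Their summed level was 3978 to 6482 CPM in sham and 11702 to 12863 CPM in injured libraries. Genes of skin and bone summed to 10629, 3437 and 2123 CPM in sham and 13593, 12654 and 8798 CPM in injured libraries. Cell cycle genes summed to 939, 295 and 247 CPM in sham and 679, 673 and 660 CPM in injured libraries. With all 6 libraries, 1 of 10 skin and bone genes and 0 of 11 cell cycle genes were called higher. Without sham replicate 1 these were 6 and 11, where 29.0% of all genes were. The part of all these cells, or of cell division, in the results of egfra and erbb2 was not tested. Skeletal muscle genes, which mark tissue outside the cord, summed to 9501 to 28226 CPM in sham and 16811 to 56389 CPM in injured libraries. With all 6 libraries none of 19 passed edgeR's test, adjusted or at an unadjusted p under 0.05, or DESeq2. When sham replicate 1 was left out, edgeR called 12 of the 19 higher, against 29.0% of all genes tested in that fit. Oocyte genes summed to 11.8 to 748 CPM in sham libraries, with the highest value in sham replicate 1, and to 9.85 to 27.5 CPM in injured libraries.

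Over the 6 libraries, the genes whose log2 CPM followed nrg1 most closely were samd1a, gria2a, a subunit gene of AMPA-type glutamate receptors, and vsnl1a, a neuronal calcium sensor gene, with Pearson's r of 1.000, 0.999 and 0.999. For egfra these were nek8, a kinase gene of cilia, papss2b, a gene of sulfate donor synthesis, and ctsh, the gene of the lysosomal protease cathepsin H, with r of 0.999, 0.999 and 0.998. For erbb4a they were ddb1, a gene of DNA repair and ubiquitin ligation, kazna and tln2a, a talin gene of cell adhesion, with r of 0.998, 0.993 and 0.992. These are descriptions over 6 libraries that share their depth, their scaling and the position of sham replicate 1. High values were common. Only genes at 10 CPM or more on average were compared, and those with clone or locus symbols were left out. Of 8398 such genes, 1161 had an r over 0.95 with nrg1 and 947 with egfra, and of 8399 such genes 185 had one with erbb4a.

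The surrounding pathway was followed in 8 lists of 126 genes. Of these 7 were higher, 4 were lower and the rest did not pass the test, with a median log2 fold change of 0.03. Of all genes tested, 5.81% were called higher and 4.83% lower. Without sham replicate 1 the pathway genes were 43 higher and 41 lower, where 29.0% of all genes were called higher and 28.2% lower. In that fit 10 of 13 protease genes were higher and 1 was lower, 12 of 49 adaptor and kinase genes were higher and 21 lower, and 1 of 8 scaffold and chaperone genes was higher and 6 lower. The feedback inhibitors had 7 of 24 higher and 7 lower, Schwann cells 5 of 11 higher and 2 lower, oligodendrocytes 3 of 12 higher and 3 lower, and the neuromuscular junction 3 of 7 higher and 1 lower. With all libraries, DESeq2 called 29 pathway genes higher and 20 lower, where it called 14.8% of all genes higher and 14.8% lower. Among 4 other Egf-family ligand genes tested, none passed edgeR's adjusted test, 2 passed without adjustment, and DESeq2 called 2 higher. These 2 were the Hb-egf genes hbegfb and hbegfa, ligands of Egf receptors and of ErbB4, each at 0.96 on the log2 scale (edgeR adjusted p = 0.106 and 0.121). Without sham replicate 1 both passed, at 1.46 for hbegfb and 1.54 for hbegfa (edgeR adjusted p = 0.00100 and 0.000104). btc, the betacellulin gene, was listed at 0 reads in every library.

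Of 13 genes for proteases that process neuregulins and other Egf-family precursors, 2 were called higher, against 5.81% of all genes tested. The median log2 fold change of this list was 0.26. adam10b, a membrane protease that sheds ectodomains, measured 55.9, 44.7 and 54.6 CPM in the sham libraries and 70.0, 73.6 and 78.8 CPM in the injured libraries. All injured libraries were above all sham libraries, and adam10b rose by 0.52 (log2 scale, standard error 0.106, adjusted p = 0.0424 from edgeR). ncstn, which encodes the gamma-secretase subunit nicastrin, rose by 0.40 (standard error 0.0925, adjusted p = 0.0474 from edgeR).

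Of 49 genes for adaptors and kinases that act below the receptors, 3 were higher and 2 were lower. These counts are near the shares of all genes tested, 5.81% called higher and 4.83% lower. The median log2 fold change of this list was -0.08. braf, a kinase of the Ras to ERK cascade, fell by 0.70 (adjusted p = 0.0402 from edgeR), from 61.3 ± 10.9 CPM in sham cords to 37.6 ± 1.23 CPM in injured cords (SD, n = 3 each). pik3cd, a catalytic subunit of PI3-kinase, fell by 0.90 (adjusted p = 0.0407 from edgeR), from 67.0 ± 15.7 CPM to 35.9 ± 1.84 CPM. rac1a, a small GTPase that acts on the cytoskeleton, rose by 0.61 (adjusted p = 0.0429 from edgeR), from 205 ± 34.2 CPM to 313 ± 2.55 CPM. Kinase activity was not measured in these libraries.

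Of 24 feedback inhibitors of receptor signaling, 1 was lower, against 4.83% of all genes tested. It was spry1, a Sprouty inhibitor of the Ras to ERK cascade, which fell by 0.53 (adjusted p = 0.0463 from edgeR), from 17.5 ± 2.17 CPM to 12.1 ± 0.217 CPM (SD, n = 3 each). Of 8 scaffold and chaperone genes, magi2a, a synaptic scaffold gene, fell by 0.52 (adjusted p = 0.0437 from edgeR). It measured 28.2 ± 1.34 CPM in sham and 19.7 ± 2.24 CPM in injured cords (SD, n = 3 each).

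Neuregulin signaling acts on myelinating glia and on muscle synapses, so genes of these were also followed. The lists share genes, so their counts are not specific to 1 cell type. In the Schwann cell list, s100b is also a listed gene of ependymo-radial glia, and sox10 and mpz are also listed for oligodendrocytes. Of 11 genes of Schwann cells and nerve roots, 1 was higher, against 5.81% of all genes tested. This was foxd3, a transcription factor gene of neural crest and early Schwann cells, with 31.0, 20.4 and 27.1 CPM in the sham libraries and 52.9, 56.5 and 55.6 CPM in the injured libraries. The groups were far apart, and foxd3 rose by 1.07 in log2 CPM (standard error 0.157, adjusted p = 0.0301 from edgeR). Of 12 genes of oligodendrocytes and myelin, plp1a, a myelin proteolipid gene, was called higher. The sham mean was 79.4 ± 2.84 CPM and the injured mean 127 ± 4.73 CPM (SD, n = 3 each), and it rose by 0.68 on the log2 scale (adjusted p = 0.0281 from edgeR).

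Of 7 genes of the neuromuscular junction none passed edgeR's adjusted test, 1 passed without adjustment, and DESeq2 called 1 lower. Lowest in p were agrn, which encodes agrin, the nerve-derived organiser of the junction, with a log2 fold change of -0.46 (adjusted p = 0.0769 from edgeR), and chrnd, a muscle acetylcholine receptor subunit gene, with 1.13 (adjusted p = 0.228). Without sham replicate 1 agrn passed, at -0.58 (edgeR adjusted p = 0.00314), and chrnd did not, at 1.72 (adjusted p = 0.0580). The median of this list, 1.03, stood beside that of skeletal muscle genes, 0.96, none of which passed the test with all 6 libraries either. Of these muscle genes, 12 of 19 were called higher without sham replicate 1. The part of muscle tissue in the median of the junction list was not tested.

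**Figure D5:**
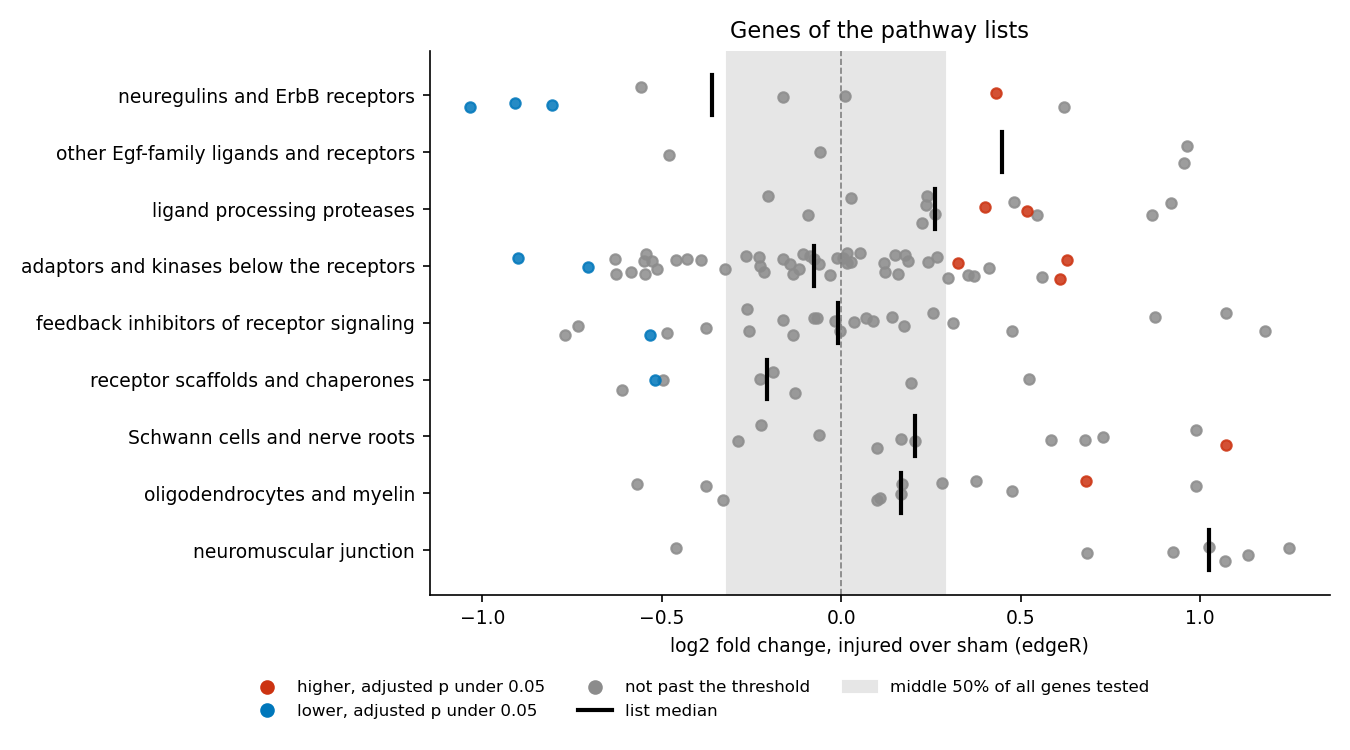
Log2 fold change at 1 wpi against sham from edgeR for each of the 8 members (top row) and each gene of the 8 pathway lists, with called genes in color, list medians as black lines and the middle 50% of all genes tested as a grey band. Below the row of the members, the medians run from -0.21 for scaffolds and chaperones to 1.03 for the neuromuscular junction.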

How the data were processed

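Libraries of sham and injured spinal cord were sequenced as single reads of 50 bp. The deposited files hold raw counts, the reads per gene symbol that the authors counted with HTSeq 0.6.0 after alignment to danRer10 with TopHat2 and filtering with SAMtools 1.3.1. Trim Galore is listed in the submitters' processing notes, which state TopHat2 2.2.1, a version that differs from the methods. Neither annotation nor strand setting is stated there, so overlapping and antisense genes may share reads. The control libraries are titled sham, their treatment label says uninjured, and they were taken as sham. The 5 rows of uncounted reads were left out of library sizes, with reads outside genes at 41.2% to 51.3% and ambiguous reads at 0.509% to 0.611% of all rows.

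Counts of libraries within a group differed by more than sampling noise, with a chi-square of 11.8 to 167 per degree of freedom. The fit used edgeR 4.0.16 under R 4.3.3 (filterByExpr with minimum count 10 and minimum total 15, TMM, glmQLFTest, Benjamini-Hochberg adjustment, threshold 0.05) on the whole table with 1 term for injury. It was tested on simulated data, where a larger share of the calls of DESeq2 than of edgeR was false. There edgeR also found a smaller share of the changes put in than DESeq2 did. No simulated library was set apart as sham replicate 1 is, so the simulation does not cover that feature of these data. Standard errors were derived from F statistics. Log2 CPM used a prior count of 2, and ratios added 0.5 to counts. Permutation tests used SciPy 1.17.1. Poisson intervals cover counting error only.

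The members and lists were chosen with earlier results of these data known. All members were named, with up to 4 called genes of each pathway list by adjusted p or, where none was called, the 2 lowest in p, and the 3 genes most correlated with nrg1, egfra and erbb4a. The correlated genes were taken among those at 10 CPM or more on average. Symbols with a colon or a prefix of loc, si, zgc, wu or im were left out there. Of the called adaptor and kinase genes, 1 fell outside this limit of 4, and 1 that the rule picks is not reported here. Older symbols were matched through a RefSeq gene table of another assembly, so no coordinates or sequences are given.

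Alternatives were RLE, upper-quartile or no scaling, scaling without muscle and oocyte genes, DESeq2 1.42.0, limma-voom (limma 3.58.1) with sample weights, 2 other filters, a replicate block, 2 added to counts in ratios, and each library left out in edgeR and DESeq2. Values beside marker lists were added after the data had been seen.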

Additional observations from a re-analysis of the deposited data

How the results depend on the processing

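The falls of nrg1, nrg2a and erbb4a and the rise of egfra kept their direction in all fits, and in edgeR their calls were lost when any library except sham replicate 1 was left out. With upper-quartile scaling no member was called higher (egfra 0.43 on the log2 scale). With no scaling 456 genes were higher and 1006 lower, against 744 and 618, with 0 members higher, 2 pathway genes higher and 8 lower, egfra at 0.39 and erbb3b at -0.034. DESeq2 called 1878 genes higher and 1888 lower, 29 and 20 pathway genes, and nrg2b at -0.56. limma-voom called 3740 and 3805 genes, 43 and 41 pathway genes and 2 members higher, with nrg2b at -0.73 and erbb2 at 0.95.

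Replicate numbers were taken as names only, since libraries of the same number did not clearly deviate together (correlations -0.165, -0.026 and 0.067). With 3 libraries per group this cannot show that pairing or a shared batch is absent. With a replicate block edgeR called 0 genes higher and 0 lower, with 4322 at an unadjusted p under 0.05, and so 0 members (4 unadjusted) and 0 pathway genes, with nrg1 at -0.99, nrg2a at -0.90, egfra at 0.44 and erbb4a at -0.80.

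With each library left out in turn, in edgeR and DESeq2, calls ranged from 0 to 3750 genes higher and 0 to 3647 lower, 0 to 2 members higher and 0 to 4 lower, and 0 to 48 pathway genes higher and 0 to 41 lower. The log2 fold change ranged from -1.24 to -0.86 for nrg1, -1.02 to -0.76 for nrg2a, -0.74 to -0.43 for nrg2b, 0.37 to 0.54 for egfra, 0.45 to 1.02 for erbb2, -0.34 to 0.33 for erbb3b and -0.87 to -0.69 for erbb4a. The difference in the log2 ratio of erbb3a to erbb3b ranged from -0.63 to 0.11. The cause of these changes was not tested. Depth limits erbb3b, with 5 to 17 reads per library.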
